A study of Mus musculus with 16 samples.

Results

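The 43 genes described here encode the urea cycle, the enzymes that take amino acids apart in the liver, and 3 transporters that bring amino acids into the cell. They were chosen by name, and the data are regions where reads gathered in RNA recovered with PGC-1α, most of them weak against the input. Of 13183 annotated genes with any such region, 41 were members. Otc, which makes citrulline from ornithine, and Haao, an enzyme of tryptophan breakdown, had none. The 43 genes fall into 8 roles: 7 in the urea cycle, 8 in glutamate metabolism and transamination, 5 in tyrosine, 4 in tryptophan, 7 in histidine, serine, proline and glycine, 6 in methionine and 3 in branched-chain breakdown, and 3 transporters.

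Amino acid nitrogen is toxic as ammonia, and hepatocytes turn it into urea in a cycle that runs between mitochondria and cytosol. Transaminases collect the nitrogen on glutamate and aspartate, and the carbon skeletons left behind enter gluconeogenesis. Glucagon, the pancreatic hormone of fasting, raises the transcription of many of these genes through cyclic AMP, and PGC-1α is a coactivator of the fasting programme that also carries RNA-binding motifs.

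PGC-1α was immunoprecipitated from primary hepatocytes of C57BL/6J mice after ultraviolet crosslinking at 254 nm and 400 mJ/cm2. No genetic change is named in the labels. Cells spent a night in starvation medium, and treated cells then received 200 nM glucagon for 3 h; the labels call the others untreated, without saying what these shared of the starvation step. The assay was seCLIP, which cuts protein-bound RNA from a gel, sequences it from 1 end and sets it against an input sample. Each treatment was read in a lower and an upper band with 2 replicates each, which gave 8 immunoprecipitated libraries in 4 groups (control lower, control upper, glucagon lower, glucagon upper). The 8 inputs entered only through the authors' fold over input. Whether the replicates came from separate cultures or animals is not said, so p-values here measure only how far these libraries differ among themselves, and that spread may be technical.

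A cluster is a short region where reads gathered, and each carries the authors' log2 fold over input and −log10 p. Each library had between 26279 and 260814 of them. Read depth is unknown, so the number of clusters stands in for it. The smallest library was replicate 1 of the glucagon lower band; the next in size had 97629. Results that rest on the smallest library are also given without it. All 7 hepatocyte markers found in the annotation had clusters in every library, Alb among them. Their summed rate was 127 to 204 per 100000 clusters of the library in the controls and 144 to 643 with glucagon, where 643 belonged to the smallest library. Of 5 defining markers each, 1 Kupffer cell, 1 endothelial, 0 stellate, 2 cholangiocyte and 0 erythroid genes had any cluster. The Kupffer cell marker with clusters was Cd68, with 4 to 7 per library in the controls and 3 to 8 with glucagon; Clec4f, Adgre1, Marco and Csf1r had 0. Whether other cells had a part in the results below was not tested. Of 6 known glucagon response genes, 4 passed the test described below and all 6 had a positive difference. Pck1, the gluconeogenic enzyme PEPCK, had 1 cluster in each control library and 7 to 18 in the glucagon libraries.

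Members made up 8115 of 1331383 clusters. The share of clusters that fell in them was higher with glucagon than in the control in every library. Per 100000 clusters it was 423, 403, 348 and 354 in the controls (lower band, then upper band, each with replicate 1 before 2, the order used throughout) and 2139, 902, 1075 and 852 with glucagon. The 2 treatments did not overlap, also without the smallest library. The mean was 382 ± 36.8 in the control and 1242 ± 606 with glucagon (SD, n = 4 libraries each). A list of 62 other genes of amino acid metabolism had 369 to 402 per 100000 in the controls and 592 to 666 with glucagon.

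Differences in clusters per gene were tested with limma over all 8477 genes with at least 16 clusters, on log2 clusters per 100000 with a pseudocount of 0.5, with band in the model. This fit, and the permutations below, take the 8 libraries as independent. The 2 bands of a replicate number may share cells, which the labels do not say, and the p-values do not allow for it. Their deviations correlated at 0.199 in the control and 0.374 with glucagon. Of the members 34 could be tested, and 16 of them rose with glucagon and 0 fell at a Benjamini-Hochberg adjusted p under 0.05. Over all genes tested 1.34% rose and 1.70% fell. The count of 16 became 8 when the 2 bands of a replicate number were summed, and 10 without glucagon upper band replicate 1 or with a pseudocount proportional to library size; the last was added after seeing the data. The median log2 difference of the tested members was 1.41, against −0.0753 for all genes, and 30 of the 34 had a positive difference. The 7 hepatocyte markers had a median of 0.683, with 6 positive and 0 passing. Among these, Serpina1c had 7, 8, 7 and 7 clusters in the controls and 7 in each glucagon library (0.93 ± 0.56, adjusted p = 0.428). So a rate can rise while the number of clusters does not. At an unadjusted p under 0.05, 21 members were higher and 1 was lower, where 462 and 838 of all 8477 genes were. Of the 16 genes that rose, 14 had all 4 glucagon libraries above all 4 controls. Among all 34 tested members 18 did so and 1 had all glucagon libraries below, where 3.79% and 8.72% of all genes did. The 9 members below the minimum were Otc, Nags, Kmo, Haao, Uroc1, Sds, Prodh2, Amt and Bhmt, with 0 to 15 clusters over the 8 libraries.

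**Figure D1:**
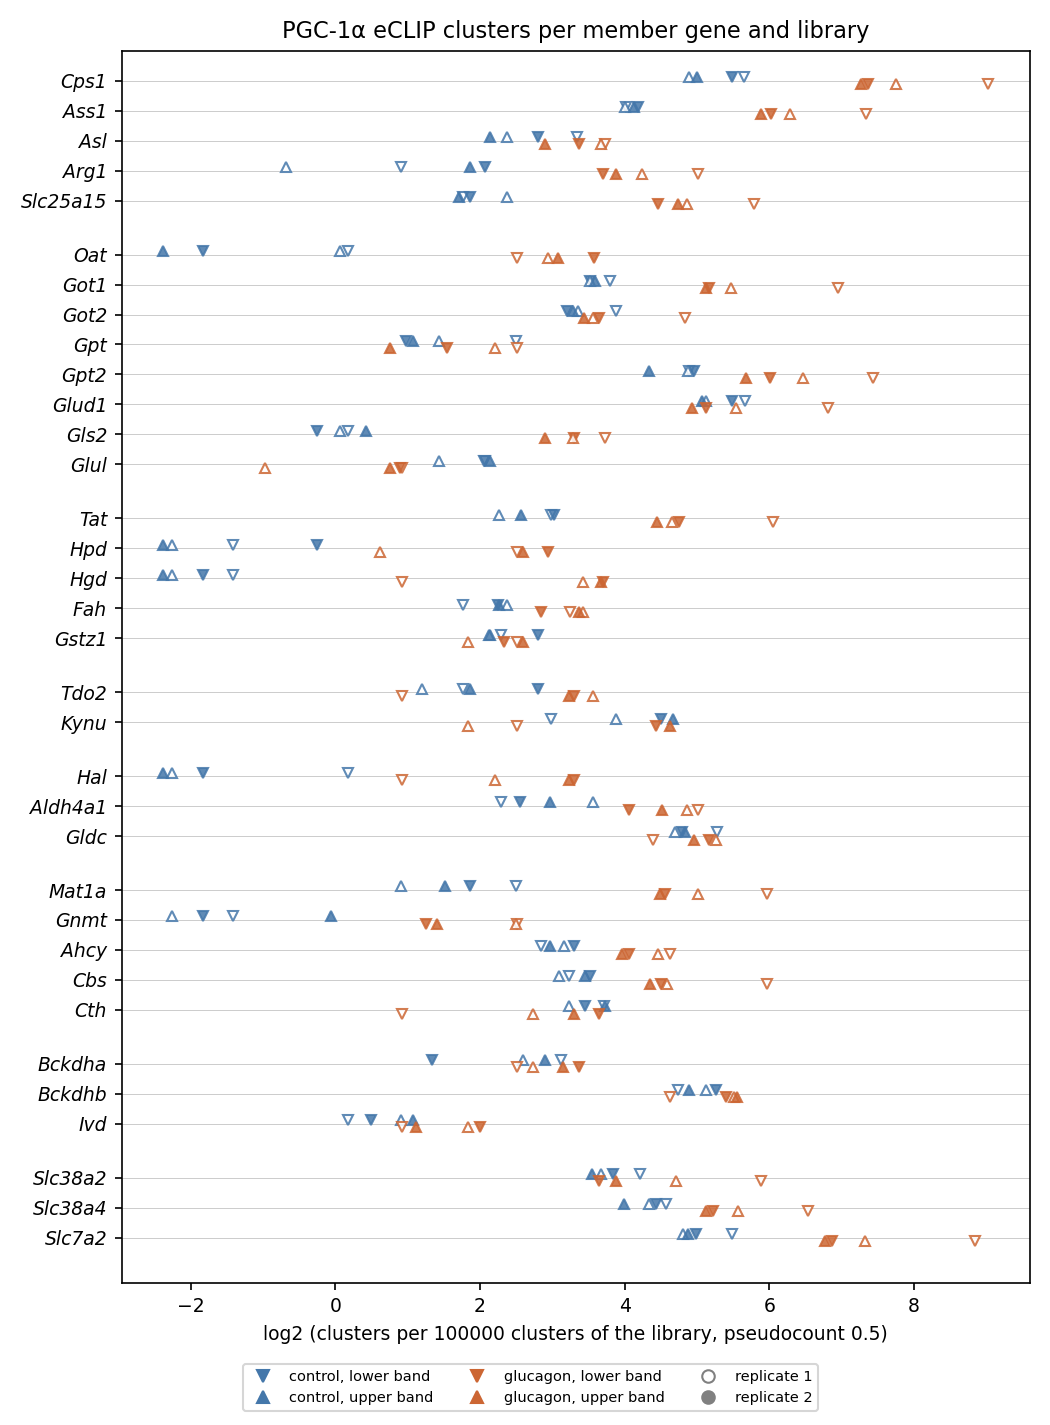
Log2 clusters per 100000 clusters of the library (x axis, pseudocount 0.5) for the 34 tested members, grouped by role from the urea cycle at the top to the transporters at the bottom. Blue symbols are control and orange symbols glucagon libraries, triangles pointing down mark the lower and up the upper band, and open symbols are replicate 1. In 18 genes every glucagon rate is above every control rate without the pseudocount; Hgd and Hal look separated here because a library with 0 clusters is drawn further right the smaller it is.

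The number of clusters is not scaled to the input. RNA levels were not analysed here, so more RNA from a gene and more binding per RNA cannot be told apart in these numbers, nor can fewer cells of a type and less RNA per cell. The fold over input, which is scaled, behaved differently. The median log2 fold of member clusters was 0.701 ± 0.107 in the control and 0.657 ± 0.0685 with glucagon (SD, n = 4 libraries each), with ranges of 0.581 to 0.819 and 0.565 to 0.724 that overlap. Of the 16 genes with more clusters, 15 had clusters in both treatments, and the median fold of their clusters was higher with glucagon in 8 and lower in 7.

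In the urea cycle 4 of 5 tested genes rose. Cps1, which fixes ammonia as carbamoyl phosphate in the first step, had the most clusters of any member. It had 66, 79, 71 and 83 in the controls and 137, 309, 211 and 321 with glucagon, a log2 difference in rate of 2.60 ± 0.33 (SE, adjusted p = 0.00184). Every glucagon library lay above every control, and the difference without the smallest library was 2.26. Ass1, which joins citrulline to aspartate, had 21, 32, 38 and 45 clusters in the controls and 42, 122, 76 and 122 with glucagon (log2 difference 2.30 ± 0.32, adjusted p = 0.00350). Arg1, the arginase that releases urea, had 2, 7, 1 and 9 against 8, 24, 18 and 30 (3.17 ± 0.57, adjusted p = 0.0128). Slc25a15, the carrier that returns ornithine to the mitochondrion, had 4, 6, 12 and 8 against 14, 41, 28 and 55 (3.04 ± 0.37, adjusted p = 0.00148). In all 3 the treatments were separated. The Arg1 call was lost without control lower band replicate 1 (adjusted p = 0.0651) and without glucagon upper band replicate 1 (adjusted p = 0.0675), with bands summed (adjusted p = 0.117) and with the proportional pseudocount (adjusted p = 0.0509). Asl, which cleaves argininosuccinate, had 13, 12, 12 and 11 clusters in the controls and 3, 19, 12 and 15 with glucagon, and its log2 difference of 0.75 ± 0.34 did not pass (adjusted p = 0.324). Nags, which makes the activator of carbamoyl phosphate synthesis, had 15 clusters in 6 libraries.

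The genes of this cycle differed in where their clusters lay. In Cps1, on chromosome 1 at 67123026 to 67231259 of mm10, intronic clusters numbered 3, 16, 15 and 21 in the controls and 78, 206, 149 and 231 with glucagon. Exonic ones numbered 63, 63, 56 and 62 against 59, 103, 62 and 90. The smallest library, with 59, had about as many exonic clusters as the controls, so its exonic rate rose without more clusters. The intronic log2 difference was 4.68 ± 0.48 (adjusted p = 0.000550 over all genes tested on introns) and the exonic one 1.29 ± 0.46 (adjusted p = 0.278). Ass1 showed 2.50 ± 0.35 in introns (adjusted p = 0.00268) and 1.06 ± 0.46 in exons (adjusted p = 0.369). Arg1 and Slc25a15 passed in both. The difference between intronic and exonic changes was not tested. For all members, 15 of 29 tested on intronic clusters rose, where 1.59% of all genes rose and 2.98% fell. On exonic clusters 8 of 25 rose, where 1.06% of all genes rose and 0.0635% fell. The median intronic difference was 1.63 in members and −0.314 over all genes, and the median exonic difference was 1.14 and 0.342. Of the 22 members tested on both, 9 had the larger difference in introns and 7 rose on both counts.

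**Figure D2:**
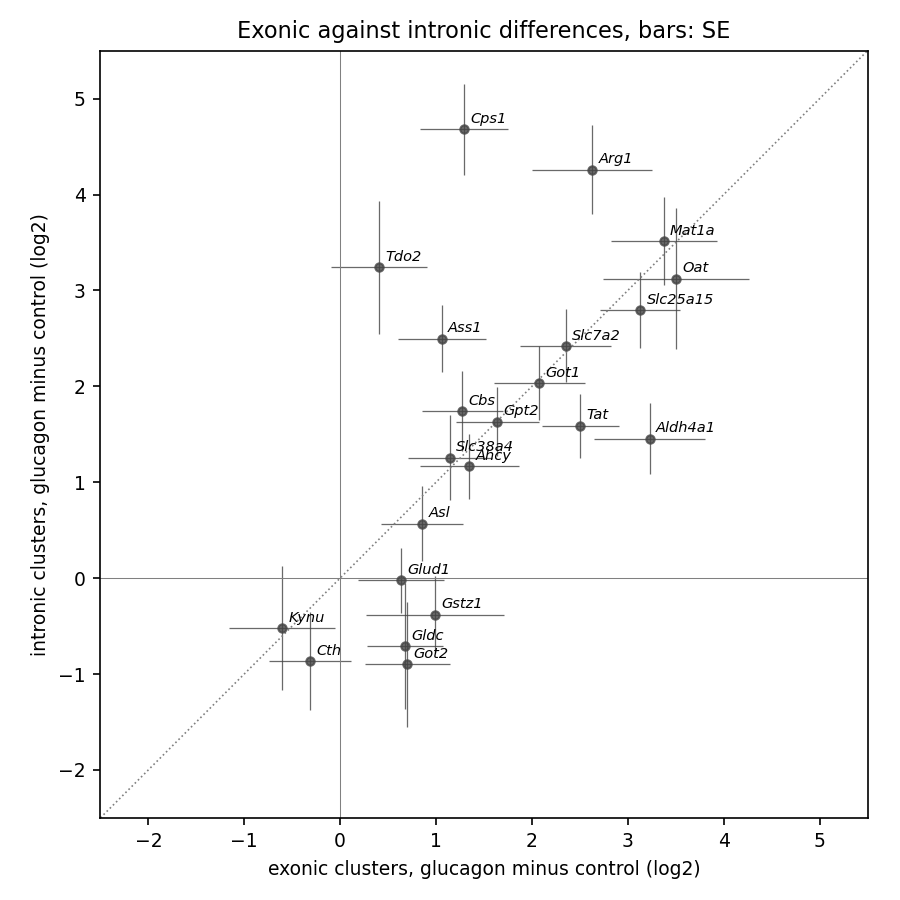
Log2 difference, glucagon minus control, of exonic clusters (x axis) against intronic clusters (y axis) for the 22 members tested on both, with standard errors as bars and the line of equal change dotted. Cps1 (1.29 exonic, 4.68 intronic) lies well above the line, and Aldh4a1 (3.23 exonic, 1.46 intronic) below it.

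Most clusters were weak, and few passed as enriched peaks, defined by a log2 fold and a −log10 p that both reached 3. Members held 86, or 1.06% of their clusters, where 2.70% of all clusters passed. The share was lower in members than in all genes in 8 of 8 libraries, on average 0.958% ± 0.396 against 2.89% ± 0.796 (SD, n = 8). The median log2 fold was also lower in 8 of 8 libraries, 0.679 ± 0.0864 against 1.26 ± 0.250. This held within introns, at 1.25 ± 0.257 against 1.73 ± 0.464, and within exons, at −0.395 ± 0.247 against 0.305 ± 0.246, in 8 of 8 libraries each. These are descriptions, since the list was put together with results of these data known. The intronic share of member clusters, 62.5% ± 8.52, was near that of all genes, 64.7% ± 10.8, and was lower than it in 4 of 8 libraries.

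**Figure D3:**
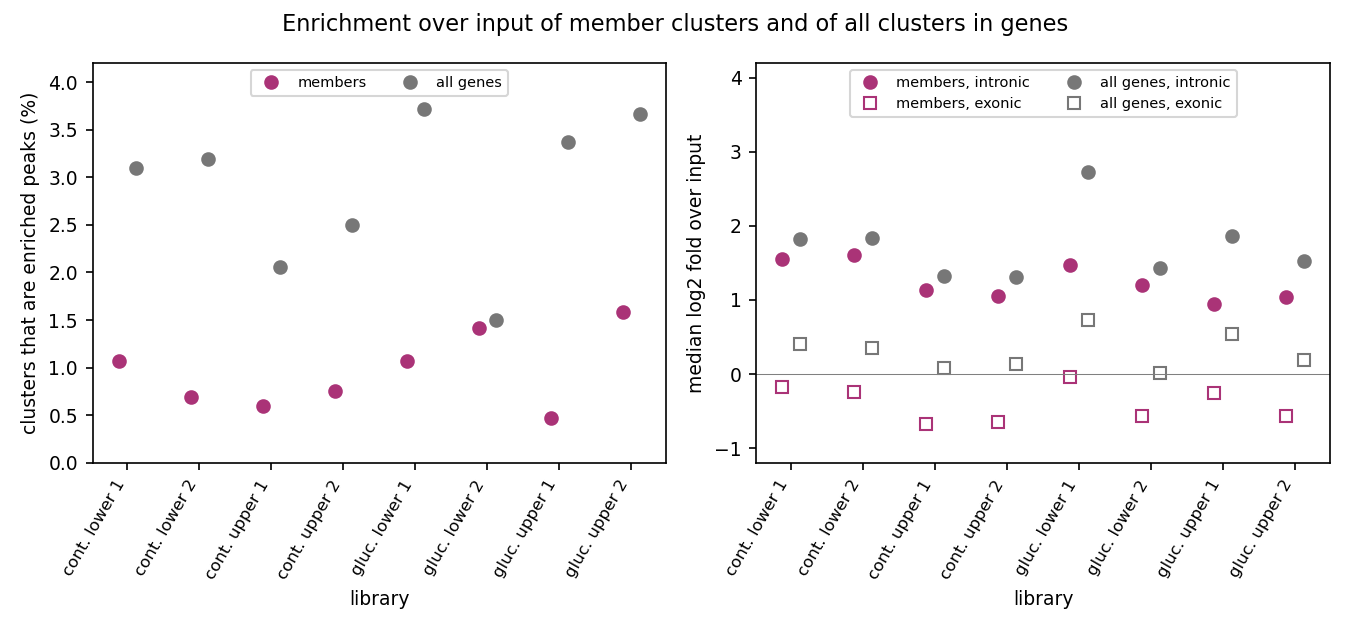
Left, percent of clusters that are enriched peaks in each of the 8 libraries for members (purple) and all genes (grey). Right, median log2 fold over input of intronic (filled) and exonic (open) clusters; member values lie below those of all genes in every library in both panels.

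Enriched peaks sat almost wholly in introns. Of the 86, 82 were intronic, 28 within 500 nt of an exon and 54 deeper, 2 lay in 5′ UTRs and 2 in exons of noncoding transcripts, and none lay in coding sequence or a 3′ UTR. All 86 fell inside an intron of at least 1 annotated transcript. The controls held 23 of them (6, 5, 5 and 7) among 3039 member clusters. The glucagon libraries held 63 (6, 24, 5 and 28) among 5076, so most came from the 2 libraries of replicate 2. On average 0.780% of member clusters were enriched in the controls and 1.14% with glucagon. The same means over all genes were 2.71% and 3.06%. In all 17 members had an enriched peak in some library, where 23.1% of all genes with a cluster did, and 11 had one in at least 2 libraries. The 17 genes had a median span of 28.3 kb and a median of 203 clusters, and the other 26 had 19.2 kb and 34.5 clusters. Members as a whole had a median of 92 clusters and all genes with a cluster 35. The comparison with 23.1% of genes does not allow for this. Just inside the fold threshold was an Ass1 peak (3.01) and just outside it a Cbs cluster (2.997). Just inside the p threshold was a Got1 peak (3.07 in −log10 p) and just outside it an Ahcy cluster (2.99). Of 214 member clusters with a log2 fold of at least 3, 128 missed the p threshold.

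Ass1 and Slc25a15 held the enriched peaks of the urea cycle, with 1 more in Arg1. Ass1 had 0 in the 4 controls and 1, 5, 0 and 0 with glucagon, so all 6 came from the lower band. They ranged from 3.01 to 3.50 in log2 fold and lay 27678 to 45340 nt from the start of the gene. The difference of 1.5 peaks per library had an exact p of 0.333 (two-sided permutation within bands, n = 4 each); 36 assignments allow no p under 0.0556. Slc25a15 had 0 in the controls and 1, 0, 0 and 3 with glucagon, all with midpoints within 657 nt of the gene start. Single peaks of Ass1 and Slc25a15, and 1 of Got2, the mitochondrial aspartate aminotransferase, lie whole inside sequences given in the annotation. They are shown, 5′ to 3′ on the strand of the gene, because they are the member RNA itself that crossed both thresholds; no letters are capitalised, since no motif is claimed.
Ass1, glucagon lower band replicate 2, chr2:31497855-31497915 (+), mm10, in an exon of a retained-intron transcript: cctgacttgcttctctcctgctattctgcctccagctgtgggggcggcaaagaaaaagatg
Got2, glucagon upper band replicate 2, chr8:95887624-95887754 (−), mm10, in an exon of a retained-intron transcript: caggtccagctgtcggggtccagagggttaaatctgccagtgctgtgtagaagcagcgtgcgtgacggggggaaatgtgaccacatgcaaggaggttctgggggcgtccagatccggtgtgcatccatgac
Slc25a15, glucagon upper band replicate 2, chr8:22398341-22398412 (−), mm10, in an intron and upstream of a RefSeq start (GRCm38.p6): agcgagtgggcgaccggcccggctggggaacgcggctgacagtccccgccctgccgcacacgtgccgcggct
The 3 stretches are 61, 131 and 72 bases long with 54.1%, 59.5% and 77.8% G or C. Their log2 folds were 3.13, 3.18 and 3.05. The label of the Slc25a15 stretch means only that it lies inside a RefSeq promoter window. Its midpoint lies 221 nt inside the gene as GENCODE M21 places it.

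Among the transaminases and glutamate enzymes 4 of 8 rose. Oat, which turns ornithine into glutamate semialdehyde, had 1, 0, 2 and 0 clusters in the controls and 1, 22, 7 and 17 with glucagon (log2 difference 4.02 ± 0.65, adjusted p = 0.00765). Its size depends on the pseudocount, since 2 controls had none, and the call was lost with bands summed (adjusted p = 0.126). Gls2, the liver glutaminase that frees ammonia for urea, had 1, 1, 2 and 3 against 3, 18, 9 and 15 (3.20 ± 0.38, adjusted p = 0.00128). Got1, the cytosolic aspartate aminotransferase, had 18, 20, 27 and 31 against 32, 67, 43 and 72 (2.07 ± 0.39, adjusted p = 0.0156). Gpt2, the mitochondrial alanine aminotransferase, had 39, 55, 70 and 52 against 45, 121, 86 and 106 (1.63 ± 0.34, adjusted p = 0.0281). In each of these 4 genes every glucagon library had a higher rate than every control. The Got1 and Gpt2 calls held in 3 of 8 fits with 1 library left out; both were lost without each of the 4 controls and without glucagon upper band replicate 1 (highest adjusted p = 0.0730 and 0.125). Both were lost with bands summed (adjusted p = 0.0804 and 0.126), and Gpt2 with the proportional pseudocount (adjusted p = 0.0605). Over the fits with 1 library left out their log2 differences were at least 1.65 and 1.32. Glud1, the glutamate dehydrogenase, was among the members with most clusters, with 67, 79, 83 and 87 against 29, 65, 45 and 63 (0.27 ± 0.35, adjusted p = 0.707). Got2 (0.44) and Gpt, the cytosolic alanine aminotransferase (0.26), did not pass either.

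Glul, the glutamine synthetase that mops up ammonia around the central vein, had lower rates with glucagon. It had 5, 7, 6 and 11 clusters in the controls and 0, 3, 0 and 3 with glucagon, and all 4 glucagon rates were below all control rates. Its log2 difference of −1.52 ± 0.49 did not pass (adjusted p = 0.149). Without the smallest library the difference was −1.60. Glul was the only tested member with this separation, which 8.72% of all genes showed. The glucagon libraries with 0 clusters in Glul were the smallest, with 26279 and 97629 clusters in all.

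Got1 had enriched peaks in both treatments, but none in the glucagon upper band. They numbered 1, 1, 2 and 2 in the controls and 1, 1, 0 and 0 with glucagon, a difference of −1 per library (exact permutation p = 0.333, n = 4). This difference turned to 8.75 peaks with a log2 fold threshold of 2 (exact permutation p = 0.0556, the smallest possible, n = 4), to 0.25 when −log10 p had to reach 5 and to 0.0356 per 10000 clusters. All 8 peaks lay between 10814 and 13406 nt from the gene start. The authors' reproducible lists, 1 per group, named Got1 in 2 groups at the same place, chromosome 19 at 43513744 to 43513808 (control upper band, log2 fold 3.46 in the authors' deposited table) and 43513768 to 43513814 (glucagon lower band, 3.01). Clusters there had log2 folds of 3.49 and 3.31 in the control upper libraries, 2.33 and 3.69 in the glucagon lower libraries and 2.48 and 2.50 in the glucagon upper libraries, and the control lower libraries had none. The −log10 p of the glucagon upper clusters, 18.9 and 33.0, was above that of the control upper clusters, 4.89 and 4.36, at the lower fold.

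Oat had no enriched peak in the controls or the lower band and 1 and 3 in the glucagon upper libraries. Its listed peak, in an intron on chromosome 7 at 132576063 to 132576144, had its midpoint 295 nt from the gene start. The peak had a log2 fold of 4.09 in the authors' deposited table. In its own libraries the fold was 4.18 and 3.997, a mean of 4.09 ± 0.130 (SD, n = 2). A control upper band cluster at the same place had 1.49, and 5 libraries had no cluster there. Got2 had 0 enriched peaks apart from 2 in glucagon upper band replicate 2, Gpt2 had 1 in glucagon lower band replicate 2 and Glud1 1 in control lower band replicate 2.

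In tyrosine breakdown 3 of 5 genes rose. Tat, the transaminase that starts the pathway and a classic hormone-induced gene, had 10, 14, 11 and 15 clusters in the controls and 17, 50, 24 and 45 with glucagon (log2 difference 2.27 ± 0.34, adjusted p = 0.00535). Hpd, the dioxygenase of the next step, had 0, 1, 0 and 0 against 1, 14, 1 and 12 (3.74 ± 0.60, adjusted p = 0.00765). Hgd, which opens the ring of homogentisate, had 0 clusters in all 4 controls and 0, 24, 10 and 26 with glucagon (adjusted p = 0.00368), and no fold is given for it. Every glucagon rate lay above every control rate in Tat and Hpd, and in Hgd the smallest library matched the controls at 0. The size of the Hpd difference depends on the pseudocount, since 3 controls had none. With the proportional pseudocount the calls of Hpd (adjusted p = 0.0556) and Hgd (adjusted p = 0.164) were lost, and with bands summed that of Hpd was lost (adjusted p = 0.166). Fah, the last enzyme, had 4, 8, 12 and 12 against 2, 13, 10 and 21. Its rates were separated by treatment, and its log2 difference of 1.06 ± 0.31 did not pass (adjusted p = 0.119). Gstz1, the isomerase before it, had 6, 12, 10 and 11 against 1, 9, 3 and 12 (−0.02 ± 0.34, adjusted p = 0.977).

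Gstz1 was the only tyrosine gene with an enriched peak, 1 in each control upper library and 0 in the other 6. The same stretch, chromosome 12 at 87148098 to 87148261, was in the control upper list with a log2 fold of 3.81 in the authors' deposited table. Clusters there had log2 folds of 3.08 and 4.19 in the control upper libraries, 0.82 and 1.99 in the control lower libraries, and 3.16 and 2.53 in replicate 2 of the glucagon lower and upper band, at −log10 p of 1.89 and 1.499. So the glucagon lower cluster passed the fold and missed the p threshold.

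Histidine and proline breakdown each had a gene that rose. Hal, the ammonia lyase that starts histidine breakdown, had 1, 0, 0 and 0 clusters in the controls and 0, 18, 4 and 19 with glucagon (log2 difference 3.99 ± 0.75, adjusted p = 0.0171), so the smallest library had none and overlapped the controls. With 3 controls at 0 the size depends on the pseudocount, and the call was lost with the proportional one (adjusted p = 0.337). Aldh4a1, the dehydrogenase that completes proline and ornithine breakdown to glutamate, had 6, 10, 28 and 20 against 8, 31, 28 and 47 (1.77 ± 0.34, adjusted p = 0.0191). Its rates were separated. The Hal call was lost without control lower band replicate 2, either control upper library or either glucagon upper library (highest adjusted p = 0.0695). The Aldh4a1 call was lost without either control lower library, control upper band replicate 2 or glucagon upper band replicate 1 (highest adjusted p = 0.0951). With bands summed both were lost (adjusted p = 0.107 and 0.126). Without the smallest library the log2 differences were 4.68 for Hal and 1.51 for Aldh4a1, and both passed. Gldc, the decarboxylase of the glycine cleavage system, had 51, 49, 62 and 74 against 5, 67, 37 and 64 (0.04 ± 0.29, adjusted p = 0.951). Gldc had 1 enriched peak, in glucagon upper band replicate 2. Uroc1, Sds, Prodh2 and Amt had 1 to 8 clusters in all.

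Among members, Aldh4a1 had the largest difference in enriched peaks, which did not pass. It had 0 in the controls and 0, 3, 2 and 5 with glucagon, a difference of 2.5 per library (exact permutation p = 0.167, n = 4, the smallest possible being 0.0556). Its 10 peaks had log2 folds of 3.14 to 4.75, and 8 of them lay more than 500 nt from an exon. Their −log10 p did not pass 8.38, and no reproducible list held one. Its clusters had the median log2 fold 1.91 in the controls and 2.17 with glucagon.

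RefSeq promoter windows (GRCm38.p6) were given for 33 of the 43 members and for 11 of the 16 that rose. In the 250 bases before the start, TTGCNNAA, a form of the C/EBP motif, occurred on either strand in 3 of the 33 members (Hal, Hgd and Prodh2). Of all 32851 windows 9.56% held it. Members are counted here as genes and the background as windows. A gene may have several windows, so these shares are not like for like. The short form of the cyclic AMP response element, TGACG, occurred on either strand in 3 of the 33 (Gstz1, Slc38a2 and Slc38a4), where 17.8% of all windows held it, and in none of the 11. The full form TGACGTCA, which contains the short form, occurred in no member and in 1.55% of windows. A match is a description of letters and not a site, and no match says only that these letters are not in this window.

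In methionine metabolism 2 of 5 tested genes rose. Mat1a, the liver enzyme that makes S-adenosylmethionine, had 7, 6, 4 and 7 clusters in the controls and 16, 44, 31 and 46 with glucagon (log2 difference 3.31 ± 0.39, adjusted p = 0.00128). Gnmt, which uses S-adenosylmethionine to methylate glycine, had 0, 0, 0 and 2 against 1, 4, 5 and 5 (3.31 ± 0.65, adjusted p = 0.0199), with 17 clusters in all. Both genes had separated rates. The size of the Gnmt difference depends on the pseudocount, since 3 controls had none, and its call was lost with a pseudocount proportional to library size (adjusted p = 0.0555) and with bands summed (adjusted p = 0.209). The Gnmt call was lost without either control lower library and without control upper band replicate 1 (highest adjusted p = 0.0707). Ahcy, which splits S-adenosylhomocysteine, had 9, 17, 21 and 20 against 6, 31, 21 and 32 (1.21 ± 0.31, adjusted p = 0.0653). Cbs, which makes cystathionine, had 12, 20, 20 and 28 against 16, 42, 23 and 42 (1.53 ± 0.37, adjusted p = 0.0518). Neither passed, though their rates were separated, and with the replicate number as a block both did (adjusted p = 0.0363 and 0.0297). With the bands of a replicate number summed neither passed (adjusted p = 0.220 and 0.154). Cth, which frees cysteine from cystathionine, had 17, 19, 22 and 34 against 0, 23, 6 and 20 (−0.88 ± 0.53, adjusted p = 0.432). Bhmt, which remethylates homocysteine, had 0 clusters in the controls and 0, 5, 1 and 4 with glucagon.

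Ahcy and Cbs each had enriched peaks in 3 glucagon libraries and none in the controls, at 1, 1, 0 and 1. The difference of 0.75 per library had an exact permutation p of 0.167 for each (n = 4). The Cbs peak with the lowest p lay in a 5′ UTR on chromosome 17 at 31636474 to 31636586, 708 nt from the gene start, with a log2 fold of 3.14 and a −log10 p of 15.8. The others of Cbs and Ahcy had −log10 p of 5.35 or less.

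Tryptophan and branched-chain genes did not pass in either direction. Tdo2, the dioxygenase that opens the tryptophan ring, had 4, 12, 5 and 9 clusters in the controls and 0, 18, 11 and 19 with glucagon (0.85 ± 0.60, adjusted p = 0.479). Its intronic clusters, 0, 0, 0 and 1 against 0, 5, 3 and 10, passed on their own (adjusted p = 0.0228), as did the gene without the smallest library (1.52, adjusted p = 0.0470). Kynu, the kynureninase, had 10, 40, 35 and 66 against 1, 40, 3 and 51 (−0.66 ± 0.65, adjusted p = 0.608). Its replicates differed widely in both treatments. Bckdhb, a subunit of the branched-chain ketoacid dehydrogenase, had 35, 68, 83 and 77 against 6, 79, 44 and 97 (0.27 ± 0.28, adjusted p = 0.633). Bckdhb spans 199096 nt, the longest member, and 97.5% of its clusters were intronic. Its enriched peaks numbered 1, 0, 0 and 0 in the controls and 0, 0, 0 and 2 with glucagon, and the difference of 0.25 turned to −0.25 without glucagon upper band replicate 2. Bckdha, the other subunit, had 1 enriched peak, in the smallest library. Its log2 difference was 0.46 and that of Ivd, the dehydrogenase of leucine breakdown, 0.81.

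The transporters held 36 of the 86 enriched peaks. Slc7a2, a cationic transporter for arginine, lysine and ornithine, had 59, 56, 67 and 76 clusters in the controls and 120, 219, 156 and 226 with glucagon (log2 difference 2.41 ± 0.38, adjusted p = 0.00752). All glucagon rates lay above all control rates, and the difference without the smallest library was 1.97. Slc38a4, a sodium-coupled transporter of neutral amino acids, had 31, 38, 48 and 41 against 24, 70, 46 and 72 (1.28 ± 0.32, adjusted p = 0.0648). It did not pass with the bands of a replicate number summed (adjusted p = 0.192). It passed with the replicate number as a block (adjusted p = 0.0185) and without either glucagon lower band library (adjusted p = 0.0223 and 0.0148). Slc38a2, a related transporter, had 24, 25, 30 and 30 against 15, 23, 25 and 30 (0.71 ± 0.45, adjusted p = 0.444).

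**Figure D4:**
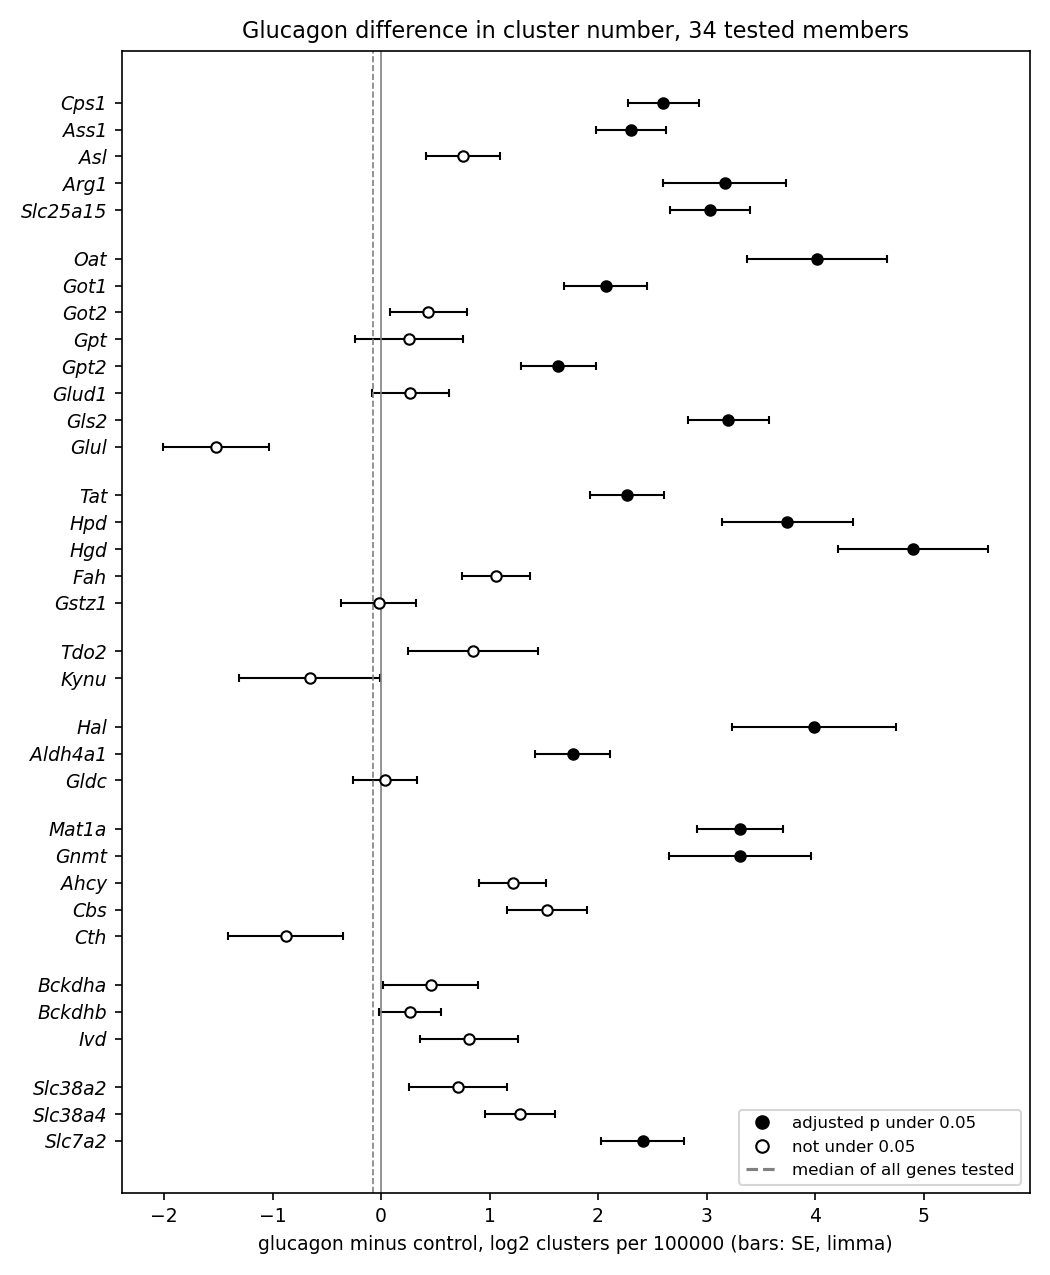
Log2 difference in clusters per 100000, glucagon minus control, with its standard error from limma for the 34 tested members by role. Filled points, 16 genes, have an adjusted p under 0.05 and all lie to the right; the dashed line is the median of all 8477 genes, and the position of Hgd, whose 4 controls had no cluster, is set by the pseudocount.

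Slc7a2 lies on chromosome 8 at 40862396 to 40922308 and had 27 enriched peaks, the most of any member. They numbered 4, 3, 0 and 4 in the controls and 0, 9, 0 and 7 with glucagon. The difference of 1.25 per library did not pass (exact permutation p = 0.778, n = 4). It turned to −1.25 with a log2 fold threshold of 4, to −2.55 percentage points as a share of the clusters of the gene, and to −1 and −0.5 without replicate 2 of the glucagon lower and upper band. Peaks of the 2 treatments differed in kind. The 11 control peaks had a median log2 fold of 3.99 and −log10 p of 3.15 to 5.37, and the 16 glucagon peaks a median log2 fold of 3.13 and −log10 p of 19.2 to the cap of 400. These values chose the peaks and are a description.

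The enriched peaks of Slc7a2 fell into 3 stretches separated by more than 2500 nt. At 0.648 to 0.889 kb from the gene start there were 4, all from controls. From 13.8 to 19.1 kb there were 19, 5 from controls and 14 with glucagon. At 34.2 to 34.4 kb there were 4, 2 of each treatment. In the first 36 kb 725 clusters had a median log2 fold of 1.71. The last exon, 5971 nt long and starting 53.9 kb into the gene, had 144 clusters with a median of −0.59 and no enriched peak.

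**Figure D5:**
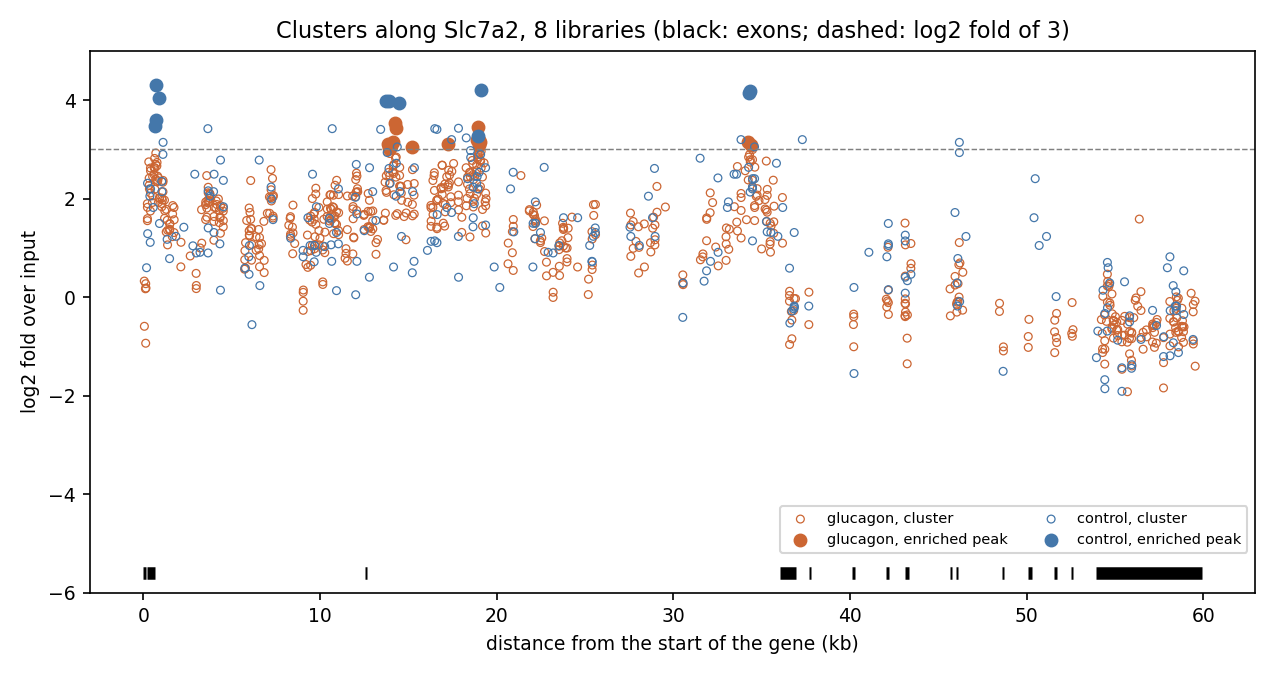
Log2 fold over input (y axis) of the 979 clusters of Slc7a2 in the 8 libraries, against distance from the start of the gene in kb. Blue marks control and orange glucagon, filled points are the 27 enriched peaks and black bars exons; enriched peaks gather near the start, at 13.8 to 19.1 kb and at 34.2 to 34.4 kb, and clusters over the last exon lie mostly below 0.

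Slc7a2 had 3 peaks in the reproducible lists. The glucagon lower band list held chromosome 8, 40876467 to 40876542, with 3.16 in the authors' deposited table and 2.66 and 3.15 in its libraries. The glucagon upper band list held 40881307 to 40881369 (3.13 in the authors' deposited table) and 40881448 to 40881501 (3.02). In both stretches of the upper band list replicate 1 stayed under the fold threshold, at 2.89 and 2.90, and replicate 2 passed, at 3.46 and 3.14. A control lower band library also passed in each of these 2 stretches, with log2 folds of 3.28 and 4.197.

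Slc38a4 had 9 enriched peaks, 0, 0, 2 and 0 in the controls and 0, 2, 2 and 3 with glucagon (difference 1.25, exact permutation p = 0.333, n = 4). All but 1 had a midpoint within 1493 nt of the gene start, and that of the other lay 46101 nt from it. Its listed peak, from the glucagon upper band, lay on chromosome 15 at 97054412 to 97054514 with a log2 fold of 4.40 in the authors' deposited table. In its own libraries it had 4.18 and 4.48, a mean of 4.33 ± 0.211 (SD, n = 2). Control upper band clusters at this place had 3.82, which passed both thresholds, and 3.19, which missed the p threshold.

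In total the 4 reproducible lists held 9 peaks in 6 members, Got1, Gstz1, Oat, Slc25a15, Slc38a4 and Slc7a2, where 9.38% of all genes with a cluster held one. Members had a median of 92 clusters and all genes with a cluster 35, which this comparison does not allow for. All 9 were intronic, 6 more than 500 nt from an exon. The control lower band list held 0, control upper 2, glucagon lower 3 and glucagon upper 4. The lists themselves held 2206, 3692, 413 and 2167 peaks in the same order. For Gstz1, Oat, Slc38a4 and the control upper band peak of Got1, each library of the group had an enriched peak at the listed place. At the Got1 peak of the glucagon lower band list, replicate 1 stayed under the fold threshold, at 2.33, and replicate 2 passed, at 3.69. The listed peak of Slc25a15, chromosome 8 at 22397908 to 22397983 in the glucagon lower band list (3.04 in the authors' deposited table), had log2 folds of 3.88 and 2.22 in its own libraries and 3.10, at a −log10 p of 30.1, in glucagon upper band replicate 2. Of these 6 genes, Got1, Oat, Slc25a15 and Slc7a2 are among the 16 that rose in cluster number.

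The band from which RNA was taken made no difference that passed. Upper minus lower, 0 of 34 members and 0 of 8477 genes (0% in each direction) had an adjusted p under 0.05 by limma, with 0 members and 310 genes at an unadjusted p under 0.05. The interaction of glucagon and band passed in 0 members and 0% of genes, with 0 members and 197 genes unadjusted. The glucagon difference in the upper band minus that in the lower band was −0.07 for Cps1 and −0.56 for Ass1. It turned to 0.77 and 0.10 without the smallest library (adjusted p = 0.749 and 0.938). The interaction count of 0 did not hold without glucagon lower band replicate 2, which leaves only the smallest library in that group. Tdo2 had 0 clusters in that library, so its value of 3.22 in this fit depends on the pseudocount.

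Of the 62 other genes of amino acid metabolism, chosen by name, 51 could be tested. Of these 6 rose and 1 fell, with a median log2 difference of 0.01. Among those that rose were Dmgdh, the dimethylglycine dehydrogenase (3.58 ± 0.40, adjusted p = 0.000943), Aass, which starts lysine breakdown (3.12 ± 0.38, adjusted p = 0.00148), Bhmt2, a homocysteine methyltransferase (2.69 ± 0.41, adjusted p = 0.00561), Aspg, an asparaginase (1.83 ± 0.41, adjusted p = 0.0380), and Acmsd, a decarboxylase of the kynurenine pathway (3.39 ± 0.79, adjusted p = 0.0465). Dmgdh had 3, 13, 12 and 8 clusters in the controls and 15, 69, 67 and 96 with glucagon. Slc7a5, the light chain of the large neutral amino acid transporter, fell, by 2.18 ± 0.39 on the log2 scale (adjusted p = 0.0128), from 27, 30, 27 and 37 clusters to 0, 6, 4 and 9. Reproducible peaks lay in 2 of the 62, Qprt, which takes quinolinate to NAD synthesis, and Slc7a1, the cationic transporter related to Slc7a2. The log2 difference of Slc7a1 was −1.89 ± 0.62 (adjusted p = 0.166). All its glucagon rates were below all control rates, as in 8.72% of all genes. The log2 difference of Qprt was −0.46 ± 0.48 (adjusted p = 0.626).

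In the 8 fits that each left out 1 library, 10 of the 16 members that rose passed whenever they could be tested (Cps1, Ass1, Slc25a15, Oat, Gls2, Tat, Hpd, Hgd, Mat1a and Slc7a2), and 6 lost the call at least once (Arg1, Got1, Gpt2, Hal, Aldh4a1 and Gnmt). In the lower band alone, with 2 libraries a side, limma called 0 of 31 members. In the upper band alone it called 9 of 32. The counts over all genes are given in the last section.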

How the data were processed

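Adapters were removed with cutadapt and reads placed with STAR on mm10, both named in the submitters' processing notes. No version and no peak caller is named in those notes or in the labels. The deposited files list clusters with −log10 p-values (capped at 400) and log2 folds over input, units taken from the values, since the files have no header. The 4 reproducible lists are the authors' own.

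Clusters were placed by midpoint and strand in GENCODE M21 genes. Distances from the gene start and from exons are those of the midpoint. Exons took precedence over introns, coding sequence over UTRs, and 81 of 8115 member clusters also lay in another gene. Clusters per gene were tested with limma 3.58.1 in R 4.3.3 (eBayes with trend) on log2((clusters + 0.5)/(library clusters + 1) × 100000), for genes with 16 or more clusters, with treatment and band as terms. In simulated data the treatment test called 1 of 80 genes with a true log2 change of 1 in size. It called 37 of 80 at 2, 37 of 40 at 3 and 0 of 7941 without a change. So a gene that did not pass may still differ. The changes were placed only in genes with many clusters. The simulated libraries were independent, with cluster numbers in proportion to library size. These shares therefore need not hold for members with few clusters or for bands that share cells. Enriched peaks were compared by exact permutation within bands. Same-numbered replicates deviated together (correlation 0.104 to 0.374 in 6 pairs of groups over 8477 genes), so the replicate block was run; the labels do not say what the numbers share, and replicate 2 was the larger library in every group. Python 3.11.15, numpy 2.4.6, pandas 2.3.3 and matplotlib 3.10.9 were used.

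Members, lists and tests were chosen with earlier results of these data known. Genes named by rule were members with a listed or enriched peak, members that passed limma, the 8 with most clusters, those beside a threshold, and, of the 62 others, those with a listed peak and the 6 with the smallest adjusted p, of which 1 is not reported here. Acmsd, the remaining members and the glucagon response and marker genes given with values were named after their values were seen. Of 8 hepatocyte markers 1 was not matched by symbol. Printed sequences come from GENCODE M21 transcripts and RefSeq windows; a genome sequence was not used here.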

Additional observations from a re-analysis of the deposited data

How the results depend on the processing

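All members that rose with glucagon, 16 in number, kept their direction in every alternative in which they could be tested. The number of members called, which need not be the same genes, was 15 to 18 with a pseudocount of 2, a minimum of 40 or 1 clusters, median-ratio scaling, covered bases, a robust prior or intronic clusters alone; of the 16, 13 of 15 tested were still called on introns, 14 of 14 with a minimum of 40 and 15 with a pseudocount of 2. It was 8 with exonic clusters alone, 0 in the lower and 9 in the upper band alone, 8 with bands summed, 10 to 20 with each library left out (10 without glucagon upper band replicate 1), and 10 with a pseudocount in proportion to the library, added after seeing the data. In fits without 1 library the lone library left in its group is assumed to vary like the others. Over all genes 258 passed, against 71 on exonic clusters, 0 and 164 in the lower and upper band alone, 69 with bands summed, 99 to 596 with each library left out, 138 with the proportional pseudocount and 594 without the 2 libraries of fewer than 100000 clusters, the last also added after seeing the data. With the replicate block 423 genes and 19 members passed; Ahcy, Cbs and Slc38a4 were gained, all 3 failing with bands summed, and it changed no other member's call. The interaction count of 0 became 467 without glucagon lower band replicate 2, and was 0 without each of the others. With a log2 fold of at least 4, 6 members rather than 17 had an enriched peak. Of enriched peaks alone 96.8% were intronic as a mean of the shares in the 8 libraries, and 82 of 86 when pooled. The difference in enriched peaks reversed for Got1 (8.75, 0.25 and 0.0356 with fold 2, −log10 p 5 and per 10000 clusters), for Bckdhb (−0.199 as a share, −0.25 to 0.75 with each library left out, lowest without glucagon upper band replicate 2) and for Slc7a2 (−1.25 with fold 4, −2.55 as a share, −1 to 3.5 with each library left out, and −0.5 without glucagon upper band replicate 2). The causes were not tested. Genes with few clusters, such as Gnmt with 17, limit what these libraries can show.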
